A study of Homo sapiens with 8 samples.

Results

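The 5 genes ESR1, ESR2, PGR, NR3C1 and NR3C2, which encode steroid hormone receptors of nuclear receptor group 3, were followed in ZR-75-1 cells treated with estradiol (E2) and dihydrotestosterone (DHT) together or with E2 alone. The genes were taken by name from a deposited table of 57773 genes, and each of the 5 names matched 1 gene. They were chosen by family and not by their levels. Of the other receptor genes of the group, ESRRA, ESRRB and ESRRG are given with the related receptors, and the rest are not analysed here.

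ZR-75-1 is an established human breast cancer line that carries the estrogen receptor. The E2+DHT group (4 libraries) received 10 nM E2 and 10 nM DHT, a potent androgen, for 4 h, and the E2 group (4 libraries) received 10 nM E2 for 4 h. All cells of both groups had first spent 72 h in medium depleted of steroid hormones, and no arm without hormone was analysed here, so the effect of E2 itself was not measured. Total RNA was made into stranded libraries and sequenced from both ends. All libraries came from a single cell line. The records give passages 8 to 11, but the labels do not say whether replicates were separate cultures. P-values therefore describe the spread among these 8 libraries alone, which may in part be technical.

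Steroid receptors are proteins that bind a hormone, move to or stay in the nucleus, pair up on DNA and raise or lower transcription of nearby genes. ESR1 and ESR2 encode estrogen receptors alpha and beta, PGR the progesterone receptor, NR3C1 the glucocorticoid receptor and NR3C2 the mineralocorticoid receptor. In luminal breast cancer ESR1 drives growth, and PGR is a classical target gene of ESR1 that is measured in the clinic as a sign of its activity. NR3C1 is expressed in most tissues, and NR3C2 is best known from salt-retaining epithelia.

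Start regions of the members are shown because their sequences hold, or lack, the letters that estrogen and steroid receptors are known to bind. RefSeq windows on GRCh38.p14, each 300 bases with 250 before an annotated start and 50 from it on, were found for 5 of 5 members, 25 windows in all. They are printed 5′ to 3′ on the strand of the gene, and capitals mark GGTCA or its reverse complement TGACC, the core letters of an estrogen response element. Of the 3 PGR windows, all on the minus strand, 2 are shown, and the third, which overlaps the first of these over most of its length, is not:
PGR, chr11:101129028-101129327, minus strand: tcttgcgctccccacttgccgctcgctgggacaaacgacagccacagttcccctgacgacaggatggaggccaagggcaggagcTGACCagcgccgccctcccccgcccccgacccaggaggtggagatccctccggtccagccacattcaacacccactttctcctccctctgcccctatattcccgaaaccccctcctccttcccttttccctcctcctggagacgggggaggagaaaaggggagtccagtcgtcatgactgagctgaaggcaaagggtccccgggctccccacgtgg
PGR, chr11:101129764-101130063, minus strand: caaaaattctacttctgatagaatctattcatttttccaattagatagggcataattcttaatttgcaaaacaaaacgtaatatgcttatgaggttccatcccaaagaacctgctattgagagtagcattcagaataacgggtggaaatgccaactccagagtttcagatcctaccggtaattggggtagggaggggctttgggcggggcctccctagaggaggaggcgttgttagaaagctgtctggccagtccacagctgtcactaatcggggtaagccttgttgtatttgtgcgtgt
One ESR1 window on the plus strand and 1 NR3C1 window on the minus strand also hold these letters:
ESR1, chr6:151690277-151690576, plus strand: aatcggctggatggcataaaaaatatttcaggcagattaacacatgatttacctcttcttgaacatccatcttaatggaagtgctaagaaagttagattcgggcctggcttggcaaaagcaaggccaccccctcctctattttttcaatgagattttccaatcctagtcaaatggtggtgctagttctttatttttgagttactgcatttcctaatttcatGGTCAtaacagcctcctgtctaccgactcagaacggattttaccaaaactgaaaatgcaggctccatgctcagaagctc
NR3C1, chr5:143435463-143435762, minus strand: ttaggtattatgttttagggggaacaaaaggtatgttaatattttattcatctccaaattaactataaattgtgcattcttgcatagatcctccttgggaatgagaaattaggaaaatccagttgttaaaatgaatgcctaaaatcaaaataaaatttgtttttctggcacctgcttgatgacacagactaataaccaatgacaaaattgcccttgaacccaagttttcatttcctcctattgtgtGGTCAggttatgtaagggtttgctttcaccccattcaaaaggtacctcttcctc

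The first PGR window has TGACC beginning 166 bases before the start and is 64.3% G and C, while the other PGR window printed has none of the searched letters and is 44.3% G and C. In the PGR window that is not printed, the same TGACC begins 180 bases before the start of that window's transcript. In the ESR1 window GGTCA begins 29 bases before the start, and in the NR3C1 window 4 bases before it. On either strand, GGTCA was in 8 of the 25 member windows, and in 37.4% of all 35116 RefSeq windows of this length. AGAACA, the core letters of the elements bound by NR3C1, NR3C2 and PGR, was in 2 member windows (14.8% of all windows), in ESR1 and ESR2. TGANTCA, bound by AP-1 factors, was in 1 member window, of NR3C1 (7.71% of all windows). The full palindrome of the estrogen response element, GGTCA then any 3 bases then TGACC, was in 0 of the 25 member windows and in 20 of the 35116 (0.057%). That of the other receptors, AGAACA then any 3 bases then TGTTCT, was in 0 of the 25 and in 1 of the 35116 (0.00285%). Both palindromes include the core letters above. These are matches of letters and not measured binding. Windows of 1 gene can overlap, so 1 site can count in more than 1 window, as in PGR and ESR2.

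Before the levels, the labels need a statement. For 4 of the 8 libraries the treatment in the record's title is not the one in its library name. Libraries were grouped by the library name, which also heads the column of values. Under this reading the records give passages 9, 11, 9 and 11 for E2+DHT replicates 1 to 4 and passages 8, 10, 8 and 10 for E2 replicates 1 to 4, so passage and treatment cannot be told apart. By the titles, replicates 1 to 4 have passages 8, 9, 10 and 11 in both groups. The passages of the records thus run with the titles and are balanced between treatments there. Which labels are right was not tested. Replicate numbers differ between title and library name in 6 of the 8 records, and in 2 of the 4 records that agree on treatment. For ESR1, PGR and FKBP5 the difference is therefore also given for the other reading of the labels and for the 4 records that agree on treatment.

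The read totals behind the scaling were 19599217 to 34616639 per library in E2+DHT and 19955045 to 31913885 in E2. Reads in the exons of the table were 83.2% to 84.8% of these totals in E2+DHT and 78.3% to 83.7% in E2. Of the markers fixed for luminal breast epithelium 10 of 10 passed the filter, from GATA3 at a mean of 22.0 RPKM to AGR2 at 988 RPKM, with a summed level of 3722 to 3993 RPKM in E2+DHT and 3219 to 3911 RPKM in E2. A mean of at least 0.5 RPKM over the 8 libraries was reached by 1 of 8 basal markers (LAMB3, 7.01 RPKM), 1 of 10 fibroblast markers (COL1A1, 0.800 RPKM, with THY1 at 0), 0 of 8 immune markers and 0 of 4 endothelial markers in the table. The summed basal level was 7.21 to 7.75 RPKM in E2+DHT and 5.97 to 8.25 RPKM in E2, and the fibroblast level 0.894 to 1.35 RPKM in E2+DHT and 0.934 to 1.13 RPKM in E2. The summed immune level was 0.453 to 0.871 RPKM in E2+DHT and 0.545 to 0.570 RPKM in E2, and the endothelial level 0.0823 to 0.111 RPKM in E2+DHT and 0.0541 to 0.132 RPKM in E2.

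Levels are read numbers divided by the exon length of the gene and the read total of the library (RPKM), a scale that allows genes to be compared. ESR1, PGR and NR3C1 were expressed at a few RPKM, NR3C2 at 0.316 to 0.507 RPKM and ESR2 at 0.0470 to 0.0698 RPKM. With DHT added, the mean RPKM of PGR was 66.2% and that of ESR1 81.0% of the mean with E2 alone, while NR3C1 averaged 1.05 times its E2 level. None of the 3 members with a mean of at least 0.5 RPKM passed the test across all genes (0 of 3 called by limma at an adjusted p of 0.05), where 21 of 11375 tested genes, or 0.185%, were called. By voom on recovered reads 0 of the 3 were called as well, against 0.352% of all tested genes. Without the filter voom called 1 of the 5 members, and 60 of 27593 genes in all. With the filter, fits that weigh libraries by their spread or treat equal replicate numbers as pairs called PGR, and some of these also called ESR1. They called 0.413% to 1.96% of all tested genes, and the labels do not state such pairs. At an unadjusted limma p under 0.05 stood 2 of the 3, ESR1 and PGR, against 4.47% of all tested genes. Because these are bulk samples, fewer cells of a type and less RNA per cell cannot be told apart.

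**Figure D1:**
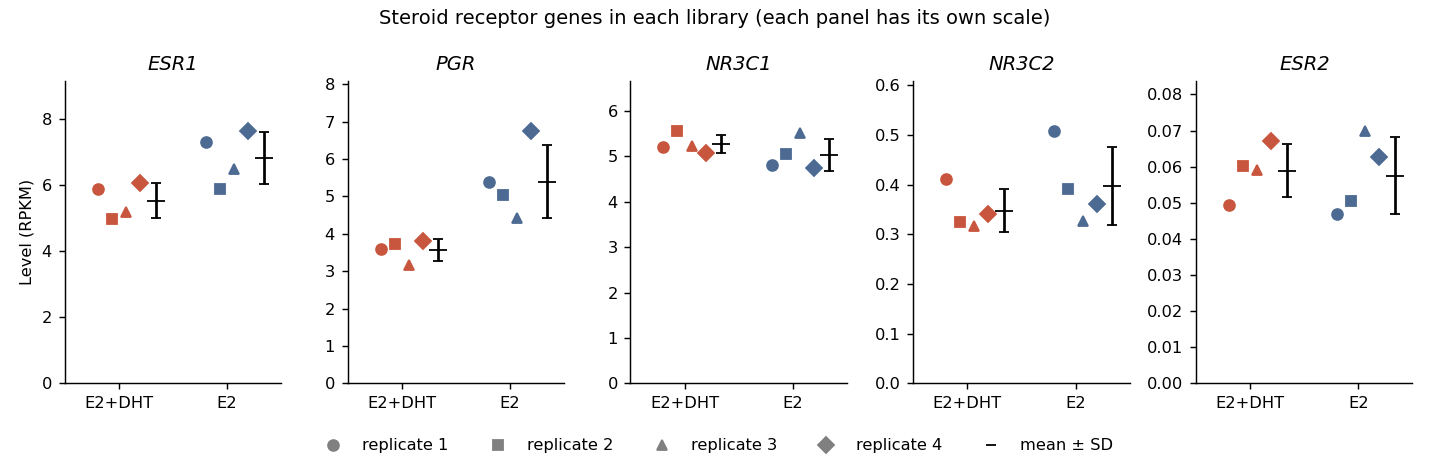
RPKM of ESR1, PGR, NR3C1, NR3C2 and ESR2 in each of the 8 libraries, E2+DHT left of E2, with the mean and SD of 4 libraries; each panel has its own vertical scale that begins at 0, and the marker gives the replicate. The PGR values of E2+DHT (3.17 to 3.80 RPKM) lie below all values of E2 (4.41 to 6.74 RPKM), and in the other 4 panels the groups overlap.

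ESR1 (ENSG00000091831), the estrogen receptor that binds the E2 given to all cells, lies on the plus strand of chromosome 6, 151977826 to 152450754 on hg19, the build of the deposited table. Its level was 5.89, 4.98, 5.17 and 6.05 RPKM in E2+DHT replicates 1 to 4, against 7.30, 5.87, 6.49 and 7.62 RPKM in E2 replicates 1 to 4. The groups overlapped, since E2 replicate 2 lay below the highest pair of E2+DHT libraries, and E2+DHT was the lower in 14 of the 16 pairs of libraries. The means were 5.52 ± 0.525 RPKM in E2+DHT and 6.82 ± 0.792 RPKM in E2 (SD, n = 4 each). On the log2(RPKM + 0.5) scale, used for all fold changes here and understating those of low genes, the difference was -0.28 with a standard error of 0.0949 and a 95% interval of -0.49 to -0.068. It did not pass (limma adjusted p = 0.761, Benjamini-Hochberg over 11375 genes). Some fits that treat equal replicate numbers as pairs called ESR1, and they are given below with the dependence on processing. Grouped by record titles the difference was 0.069, the opposite direction, and over the 4 records with agreeing labels it was -0.21. ESR1 exceeded 62.8% of the tested genes in mean RPKM.

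PGR (ENSG00000082175), the progesterone receptor, lies on the minus strand of chromosome 11, 100900355 to 101001255 on hg19. It had 3.59, 3.72, 3.17 and 3.80 RPKM in E2+DHT replicates 1 to 4, against 5.39, 5.03, 4.41 and 6.74 RPKM in E2 replicates 1 to 4. Each E2+DHT library lay below each E2 library, and E2 replicate 4 was the highest. Of all tested genes 162, or 1.42%, were separated in this direction and 3.4% in either, and PGR was the 1 member of the 3 tested that was. Its recovered reads were 6543 over the E2+DHT libraries and 8055 over the E2 libraries. The means were 3.57 ± 0.282 RPKM in E2+DHT and 5.39 ± 0.982 RPKM in E2 (SD, n = 4 each), so the spread was 7.90% of the mean in E2+DHT and 18.2% in E2.

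The log2 difference of PGR was -0.52 with a standard error of 0.112 and a 95% interval of -0.77 to -0.27. Among the 11375 tested genes it ranked 62 by p and did not pass (limma adjusted p = 0.158, Benjamini-Hochberg). The call depended on the fit: with array weights, which weigh libraries by their spread, PGR passed as lower (-0.68, limma adjusted p = 0.0323), in a fit that called 0.413% of all tested genes. PGR also passed in fits that treat equal replicate numbers as pairs, which the labels do not state. These are given below with the dependence on processing. Grouped by record titles the difference was -0.0015, and over the 4 records with agreeing labels it was -0.52 with a standard error of 0.131. Without E2 replicate 4 it was -0.42. The percent of reads in exons averaged 84.0 in E2+DHT and 81.2 in E2, and with it as a covariate the difference of PGR was -0.40 (limma adjusted p = 0.624).

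**Figure D2:**
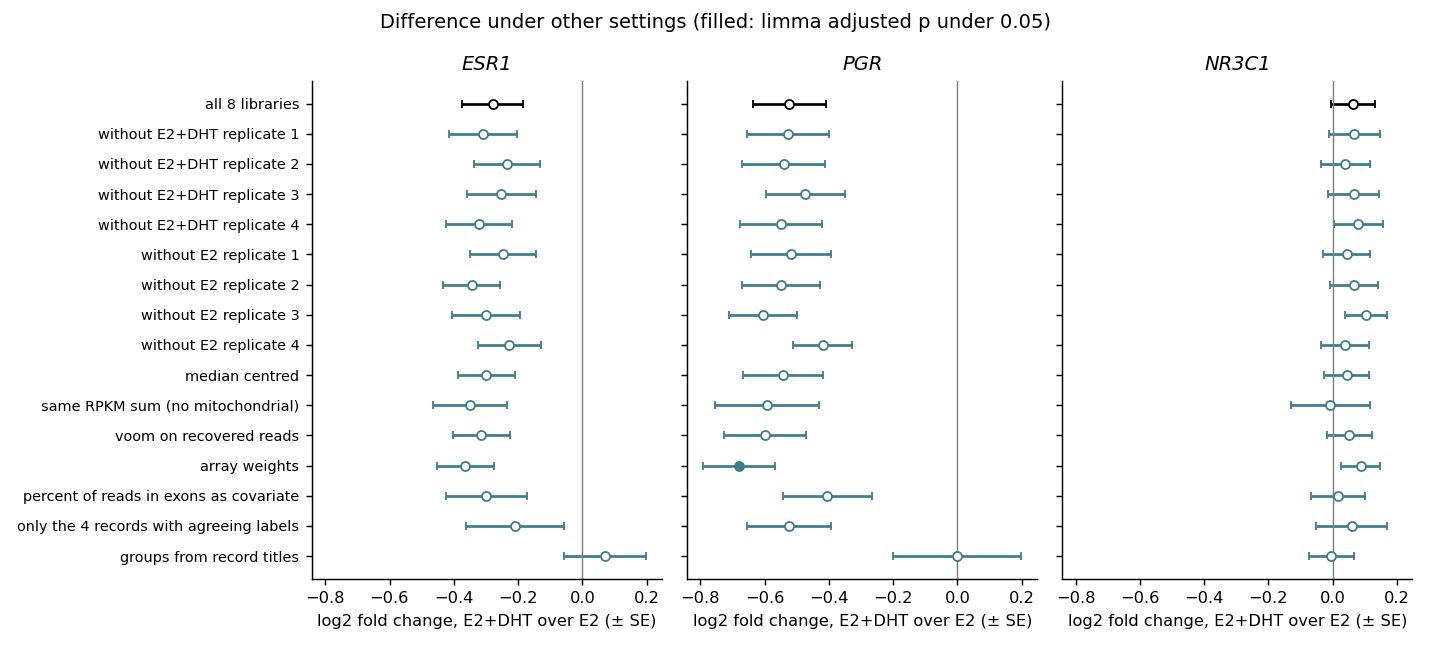
Log2 fold change of ESR1, PGR and NR3C1, E2+DHT over E2, with its standard error, under the settings named at the left and without each library in turn. Filled points have a limma adjusted p under 0.05. Fits with a replicate block, other pseudocounts, other filters or no intensity trend are not plotted. Calls of PGR and ESR1 in block fits are given with the dependence on processing. PGR lies at -0.42 to -0.61 in the 8 fits without 1 library and at -0.0015 when libraries are grouped by record titles.

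NR3C1 (ENSG00000113580), the glucocorticoid receptor, lies on the minus strand of chromosome 5, 142657496 to 142815077 on hg19. It had 5.21, 5.55, 5.24 and 5.08 RPKM in E2+DHT replicates 1 to 4 and 4.81, 5.06, 5.51 and 4.74 RPKM in E2 replicates 1 to 4. The groups overlapped through E2 replicate 3, the other E2 libraries lay below all of E2+DHT, and E2+DHT was the lower in 3 of the 16 pairs of libraries. The means were 5.27 ± 0.201 RPKM in E2+DHT and 5.03 ± 0.348 RPKM in E2 (SD, n = 4 each). The log2 difference was 0.063 with a standard error of 0.0673 and a 95% interval of -0.087 to 0.21 (limma adjusted p = 0.999), and its direction turned with the scaling, to -0.0071 when all libraries were set to the same RPKM sum outside the mitochondrial genes. Its SD within groups on the log2 scale, 0.0722, was above that of 12.2% of tested genes, against 58.1% for ESR1 (SD 0.143) and 73.5% for PGR (SD 0.181).

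NR3C2 (ENSG00000151623), the mineralocorticoid receptor, lies on the minus strand of chromosome 4, 148999913 to 149365850 on hg19. It had 0.411, 0.324, 0.316 and 0.342 RPKM in E2+DHT replicates 1 to 4 and 0.507, 0.392, 0.326 and 0.362 RPKM in E2 replicates 1 to 4. The groups overlapped, at 0.348 ± 0.0432 RPKM in E2+DHT and 0.397 ± 0.0784 RPKM in E2 (SD, n = 4 each). With a mean under 0.5 RPKM it did not enter the main test. In the fit without a filter, which called 5 of 27594 genes (0.0181%), its log2 difference was -0.078 (standard error 0.0787, limma adjusted p = 0.920), and without E2 replicate 1 it was -0.021. The values rest on 280 recovered reads in E2+DHT and 265 in E2, and the ratio of the rates was 0.857 with an exact 95% counting interval of 0.722 to 1.02, which leaves out the spread between libraries.

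ESR2 (ENSG00000140009), estrogen receptor beta, lies on the minus strand of chromosome 14, 64550950 to 64804830 on hg19. It had 0.0495, 0.0601, 0.0590 and 0.0671 RPKM in E2+DHT replicates 1 to 4 and 0.0470, 0.0504, 0.0698 and 0.0628 RPKM in E2 replicates 1 to 4. That was 11 to 20 reads per library in E2+DHT and 12 to 14 in E2, and the ratio of the rates was 1.05 with an exact 95% counting interval of 0.717 to 1.54. At this depth a difference within that interval was not detectable. Of the span of ESR2, 142216 bases or 56.0% overlap SYNE2, a nuclear envelope gene on the opposite strand that had 3.88 ± 0.440 RPKM in E2+DHT and 4.45 ± 0.686 RPKM in E2 (SD, n = 4 each). Whether the counting used strand is not given in the sources used here, so reads of ESR2 and SYNE2 may not have been told apart where their exons overlap.

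Among the other members, ESR1 shares 1.68% of its span with SYNE1, on the opposite strand, which averaged 0.0516 RPKM in E2+DHT and 0.0467 RPKM in E2. NR3C2 shares 17.1% of its span with RP11-76G10.1, on the opposite strand, which is listed at 0 in all 8 libraries. No gene in the table overlaps PGR. ESR1, ESR2 and NR3C1 have further overlapping genes, each averaging under 0.05 RPKM, which are not named.

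In order of level, ESR1 and NR3C1 changed places between libraries. ESR1 exceeded NR3C1 in 2 of 4 E2+DHT libraries and in 4 of 4 E2 libraries, and NR3C1 exceeded PGR in 4 of 4 E2+DHT libraries and in 2 of 4 E2 libraries. The neighbours in this order, ESR1 with NR3C1 in E2+DHT and PGR with NR3C1 in E2, thus overlapped in their library values. The ranges of ESR1 (5.87 to 7.62 RPKM) and PGR (4.41 to 6.74 RPKM) overlapped in E2 as well. ESR1 exceeded PGR in all 8 libraries, by 1.13 to 1.64 times. PGR was 8.74 to 18.6 times as high as NR3C2, and NR3C2 was 4.67 to 10.8 times as high as ESR2, so these lower steps held in every library.

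The sum of the 5 members was 14.8 ± 0.621 RPKM in E2+DHT and 17.7 ± 1.40 RPKM in E2 (SD, n = 4 each). ESR1 made up a like share of that sum, 37.3 ± 2.43% in E2+DHT and 38.5 ± 1.95% in E2. PGR made up 23.7%, 25.4%, 22.7% and 24.8% in E2+DHT replicates 1 to 4, against 29.9%, 30.7%, 26.3% and 34.5% in E2 replicates 1 to 4, with no overlap. NR3C1 made up 34.4%, 37.9%, 37.6% and 33.1% in E2+DHT replicates 1 to 4, against 26.6%, 30.8%, 32.8% and 24.3% in E2 replicates 1 to 4, and these groups did not overlap either. Shares sum to a whole, so a higher share of NR3C1 goes with the lower share of PGR while the NR3C1 level itself overlapped between groups. NR3C2 made up 2.36 ± 0.239% in E2+DHT and 2.25 ± 0.442% in E2, and ESR2 0.400 ± 0.0498% in E2+DHT and 0.326 ± 0.0649% in E2. These shares are given as a description, without a test.

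**Figure D3:**
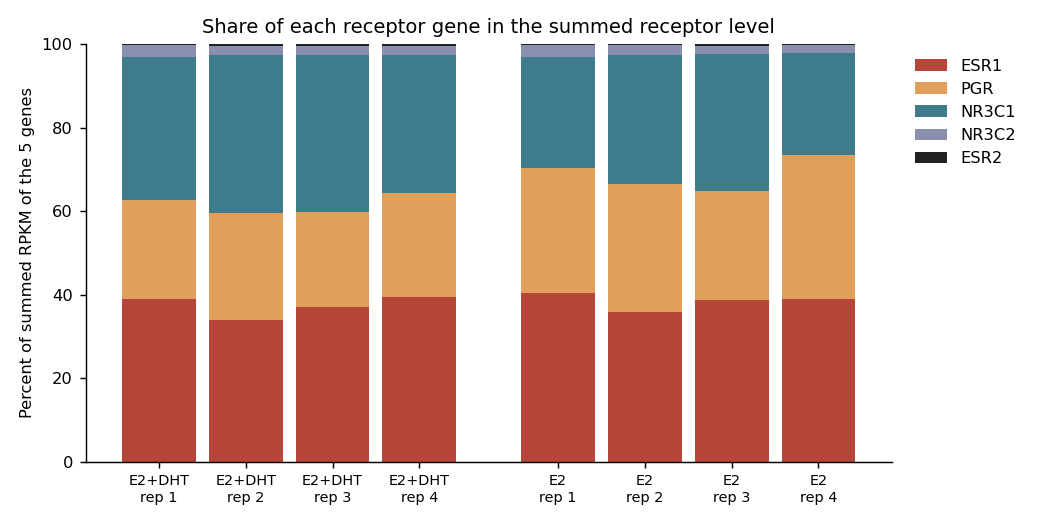
Percent of the summed RPKM of the 5 receptor genes taken by each, stacked for the 4 E2+DHT libraries and then the 4 E2 libraries. The PGR part is 22.7% to 25.4% in E2+DHT and 26.3% to 34.5% in E2.

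For each tested member the 3 genes with the most similar values over the 8 libraries were named, by the root mean square difference of centred log2(RPKM + 0.5). For ESR1 these were FREM2, an extracellular matrix protein (difference 0.0452), RP11-429J17.7 (0.0582) and BCL2L11, which encodes the apoptosis activator BIM (0.0607), where the SD of ESR1 itself was 0.187. FREM2 had 7.49 ± 0.648 RPKM in E2+DHT and 8.90 ± 0.768 RPKM in E2 (SD, n = 4 each; log2 difference -0.24, limma adjusted p = 0.860). For NR3C1 the genes were LEMD3, an inner nuclear membrane protein (0.0265), NUB1 (0.0266) and STARD3NL (0.0286), beside an SD of 0.0701 for NR3C1.

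For PGR the nearest were LINC01087, a long noncoding RNA (0.124), PDZK1, a scaffold protein (0.143), and BCL2, an inhibitor of apoptosis (0.157), where the SD of PGR was 0.305. PDZK1 had 6.11 ± 0.972 RPKM in E2+DHT and 7.86 ± 1.30 RPKM in E2 (SD, n = 4 each; log2 difference -0.34, limma adjusted p = 0.963), and LINC01087 had 0.646 ± 0.0536 RPKM in E2+DHT and 0.927 ± 0.212 RPKM in E2 (-0.31, limma adjusted p = 0.709). BCL2 passed as lower (-0.41, limma adjusted p = 0.0337), and lost the call in all 8 fits without 1 library (limma adjusted p = 0.0511 to 0.177). E2 replicate 4 was the highest library for PGR and its 3 genes, and also for ESR1 and its 3 genes. Similarity was measured over 8 libraries that include the groups compared.

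**Figure D4:**
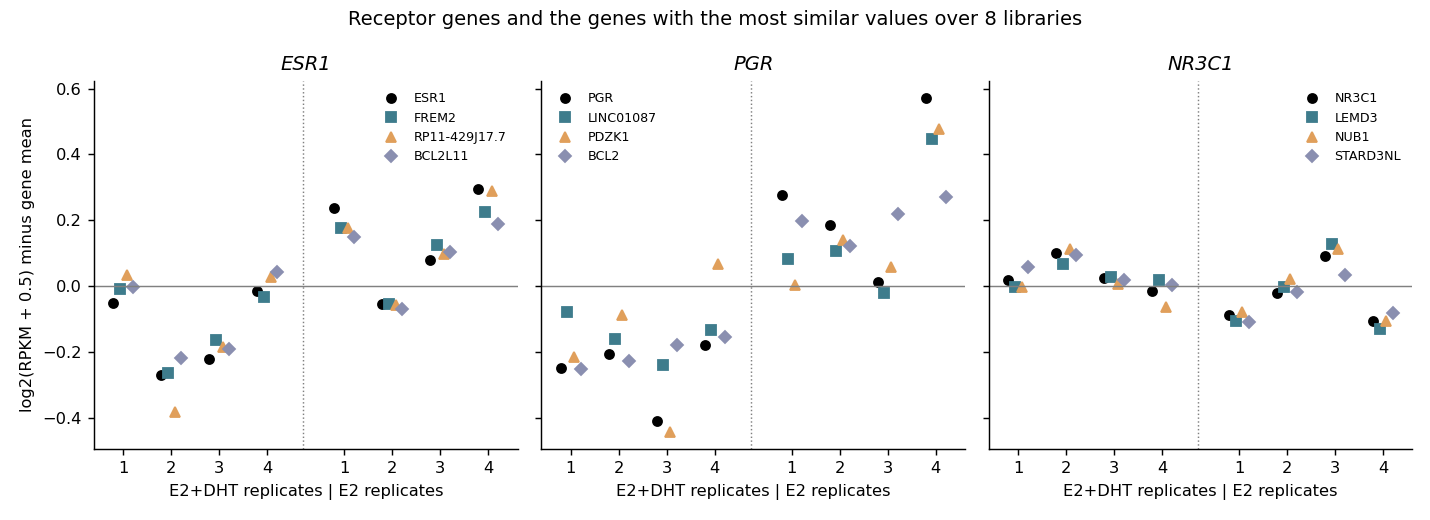
Log2(RPKM + 0.5) minus the gene's mean over 8 libraries for ESR1, PGR and NR3C1, each with the 3 genes most similar to it; E2+DHT replicates 1 to 4 stand left of E2 replicates 1 to 4. The points of PGR and its 3 genes spread more widely over the libraries (SD of PGR 0.305) than those of NR3C1 (SD 0.0701).

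Related receptors were examined next. Estrogen-related receptors are orphan members of the nuclear receptor family that bind no estrogen, and of these ESRRA had 7.48 ± 0.474 RPKM in E2+DHT and 7.24 ± 2.23 RPKM in E2 (SD, n = 4 each), ESRRG 0.0622 RPKM in E2+DHT and 0.0577 RPKM in E2, and ESRRB 0.00369 RPKM in E2+DHT and 0.00192 RPKM in E2 on average. Among membrane steroid receptors, 8 genes were in the table and 4 were tested, and 0 passed in either direction by limma (0 also at an unadjusted p under 0.05). PGRMC1, a heme-binding progesterone receptor component, was the highest, at 66.0 RPKM in E2+DHT and 63.4 RPKM in E2. PGRMC2 averaged 4.37 RPKM in E2+DHT and 4.16 RPKM in E2. The membrane progestin receptors PAQR6 and PAQR7 averaged 1.54 and 1.02 RPKM in E2+DHT, and 1.64 and 0.869 RPKM in E2. GPER1, the G protein-coupled estrogen receptor, was at 0.00460 RPKM in E2+DHT and 0.0103 RPKM in E2. PAQR5, PAQR8 and PAQR9 also stayed under 0.5 RPKM.

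Chaperones hold steroid receptors in a form that can bind hormone, and of 17 tested 1 rose, 0 fell and 16 did not pass, where 0.176% of all tested genes rose and 0.00879% fell. The gene that rose was FKBP5, an immunophilin of the receptor complex and a known target of several steroid receptors, at 2.20 ± 0.263 RPKM in E2+DHT and 0.785 ± 0.0897 RPKM in E2 (SD, n = 4 each; log2 difference 1.07, standard error 0.0889, limma adjusted p = 0.000727). Grouped by record titles its difference was -0.029, and over the 4 records with agreeing labels 1.04 (limma adjusted p = 0.894). The abundant chaperones HSPA8 and HSP90AB1 averaged 706.6 and 298.9 RPKM in E2+DHT, and 698.0 and 298.7 RPKM in E2. The median log2 difference of the chaperones was 0.0028, and that of all tested genes was 0.014, with 56.3% of genes above 0.

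Factors that open chromatin for ESR1 or act upstream of it (11 tested) and coregulators (16 tested) had 0 called in either direction by limma, with 1 gene of each at an unadjusted p under 0.05. Their median log2 differences were 0.026 and 0.039. The pioneer factor FOXA1 averaged 44.2 RPKM in E2+DHT and 43.4 RPKM in E2, and XBP1, a factor of the unfolded protein response, 332.8 RPKM in E2+DHT and 336.2 RPKM in E2. GRHL2, an epithelial transcription factor, had 23.7 ± 1.79 RPKM in E2+DHT and 19.1 ± 1.29 RPKM in E2 (SD, n = 4 each; log2 difference 0.30, limma adjusted p = 0.304). NCOA1, a coactivator of steroid receptors, had 4.81 ± 0.275 RPKM in E2+DHT and 3.99 ± 0.136 RPKM in E2 (0.24, limma adjusted p = 0.357).

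Target genes known for each receptor were counted in the same test. The lists were chosen with earlier results of these data known, so the counts are a description. Of 17 tested estrogen receptor targets 0 were called in either direction by limma and 6 had an unadjusted p under 0.05, where 0.185% of all tested genes were called and 4.47% had such a p. Their log2 differences were above 0 in 7 and below 0 in 10, with a median of -0.014, where 56.3% of all tested genes were above 0. TFF1, a secreted trefoil peptide and a standard estrogen target, had 350.9 ± 25.0 RPKM in E2+DHT and 374.0 ± 22.7 RPKM in E2 (SD, n = 4 each). SGK3, a kinase, had 1.51 ± 0.208 RPKM in E2+DHT and 1.04 ± 0.0835 RPKM in E2 (0.38, limma adjusted p = 0.206). STC2, a secreted glycoprotein, had 1.64, 1.43, 1.30 and 1.27 RPKM in E2+DHT replicates 1 to 4 and 1.86, 1.29, 1.60 and 3.91 RPKM in E2 replicates 1 to 4, where E2 replicate 4 stood far above the rest (-0.39, limma adjusted p = 0.999). Without that library the difference was -0.12.

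Of 10 progesterone receptor targets 3 were tested, with 0 called in either direction by limma, 0 at an unadjusted p under 0.05 and a median log2 difference of -0.14. The cell cycle gene CCND1 averaged 117.5 RPKM in E2+DHT and 130.2 RPKM in E2, ID4 1.13 RPKM in E2+DHT and 1.34 RPKM in E2, and the ligand WNT4 0.550 RPKM in E2+DHT and 0.609 RPKM in E2. No progestin was given in either group.

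Of 14 tested corticosteroid receptor targets 1 rose, again FKBP5, 0 fell and 13 did not pass, where 0.176% of all tested genes rose. Above 0 were 13 of the 14 log2 differences, with a median of 0.21, against 56.3% of all tested genes with a median of 0.014. An unadjusted limma p under 0.05 was found for 6 of the 14, against 4.47% of all tested genes. As the list was chosen with earlier results of these data known, these counts describe it and are no test of it. NFKBIA, which encodes an inhibitor of NF-kappa-B, reached 32.0 ± 2.11 RPKM in E2+DHT and 21.1 ± 3.15 RPKM in E2 (SD, n = 4 each; log2 difference 0.60, limma adjusted p = 0.0573). It passed as higher in 7 of 23 alternative fits. Grouped by record titles the difference was 0.11, and with the percent of reads in exons as a covariate 0.41 (limma adjusted p = 0.402). ATP1B1, a subunit of the sodium pump, averaged 82.4 RPKM in E2+DHT and 81.1 RPKM in E2. No corticosteroid was given in either group.

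**Figure D5:**
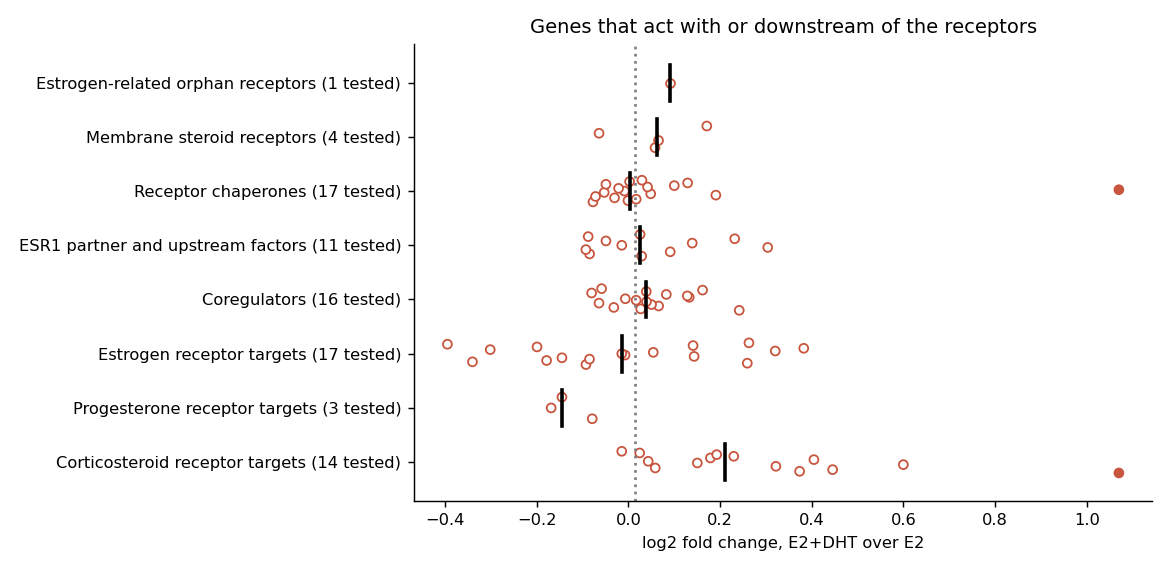
Log2 fold change, E2+DHT over E2, of each tested gene in the lists of related receptors, chaperones, partners, coregulators and target genes, with the list median as a bar; filled points passed the test, and the dotted line is the median of all tested genes (0.014). FKBP5 lies farthest to the right, at 1.07, and the corticosteroid targets have a median of 0.21. The lists were chosen with earlier results of these data known.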

How the data were processed

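RNA of 8 ZR-75-1 libraries was analysed, 4 treated with E2+DHT and 4 with E2. The authors deposited RPKM values for 57773 genes, of which 27594 were expressed in some library. The build was hg19, per the submitters' processing notes. For the aligner, counting tool and annotation: not given in the sources used here. No column of the table was left unused.

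Whole reads were recovered from the steps of the RPKM values for 27593 of 27594 genes (tolerance 0.0001 reads). The median was 529 reads per tested gene and library. Read-based intervals cover counting error only.

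Values were compared as log2(RPKM + 0.5) for the 11375 genes with a mean RPKM of at least 0.5, with limma 3.58.1 in R 4.3.3 (empirical Bayes with a trend, two-sided, no replicate block, Benjamini-Hochberg, threshold 0.05), checked on simulated data. Plots used matplotlib 3.10.9, and tables NumPy 2.4.6, pandas 2.3.3 and SciPy 1.17.1 in Python 3.11.15. Promoter windows came from RefSeq.

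Members and lists were chosen with earlier results of these data known. Named were the members, the 3 genes most like each tested member, overlapping genes of at least 0.05 RPKM, and, per list, called genes, the 2 with the highest levels and the 2 with the largest differences, or all genes of a list of at most 8. Outside that rule, SYNE1 and RP11-76G10.1, which overlap members at lower levels, were also named. WNT4 and the genes marked so in the text, also outside it, were named after their values were seen. Alternatives covered the filter, pseudocount, scaling, weights, label reading, block, voom on recovered reads and each library left out. The values of 1 gene that the rule would name are not reported here.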

Additional observations from a re-analysis of the deposited data

Results flagged for a closer look

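FKBP5, the chaperone gene that rose with DHT, had 1 library apart within the E2 group: E2 replicate 1 had 0.652 RPKM, while E2 replicates 2 to 4 had 0.813 to 0.841 RPKM. Of 36 groups of 4 libraries checked, for the members and some of the named genes, this was the 1 flagged, and chance alone flags about 1 in 20. Other named genes were outside this check and can also hold a library apart. PGRMC2, for example, had 4.73 RPKM in E2+DHT replicate 4 and 4.24 to 4.26 RPKM in E2+DHT replicates 1 to 3.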

How the results depend on the processing

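The number of genes called among all tested, 21 as reported, was 20 to 21 with pseudocounts of 0.1 and 1 and 15 at a minimum of 2 RPKM. It was 5 with no filter, 33 with median centring, 12 with the same RPKM sum outside mitochondrial genes, 47 with array weights, 40 with voom on recovered reads, 2 with groups from record titles, 0 by limma over the 4 records with agreeing labels (286 genes at an unadjusted p under 0.05) and 6 to 18 without single libraries. Added after seeing the data, the exon percent as a covariate gave 5.

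Replicate numbers were not taken to pair the samples, since the labels do not say that they do. A pairing by the data needed each same-numbered correlation to exceed 0.1. These were 0.703, 0.455, 0.121 and 0.083, and 3 of 4 E2+DHT libraries and 3 of 4 E2 libraries correlated best with their own number, a hint from the data and not from the design. With the replicate block 72 of 11375 genes (0.633%) were called, with voom and the block 223 (1.96%), and with median centring and the block, added after seeing the data, 131 (1.15%). Of the receptors, 0 as reported, 1 was called with the block (PGR, limma adjusted p = 0.0143) and 1 with array weights (PGR). It was 2 with voom and the block (PGR, limma adjusted p = 5.7e-05, and ESR1, 0.00265) and 2 with centring and the block (PGR, 0.00635, and ESR1, 0.0305). Those fits used the filter. Without it, voom called 1 of the 5 receptors (60 of 27593 genes in all), while array weights and the block alone called 0. Voom with the block still called 2 (289 of 27593 genes), and centring with the block 2 (154 of 27594 genes).

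Grouping by record titles reversed ESR1 (0.069), NR3C1 (-0.0042), FKBP5 (-0.029), BCL2 (0.079), FREM2 (0.076), GRHL2 (-0.053), LINC01087 (0.026), NCOA1 (-0.014), PDZK1 (0.080), SGK3 (-0.086) and STC2 (0.19). The same RPKM sum reversed NR3C1 (-0.0071). ESR2, at 0.0039 in the fit without filter, became -0.016 with median centring, also with the block, -0.0047 with the same RPKM sum, -0.0042 with the exon covariate, and -0.0052 to 0.014 without single libraries. Where not stated, the cause was not tested.

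PGR stayed below 0 in all 23 alternatives, by -0.0015 under record titles and by -0.68 to -0.40 in the others. Its limma adjusted p without single libraries was 0.103 to 0.462. Reads per library limit ESR2 and NR3C2. The rest are limited by the 4 libraries per group, and also by the conflicting labels, the passages and the choice of fit. How much each of these adds was not tested.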

Other observations

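E2 replicate 4, the highest library for PGR and ESR1, was also far the highest for 2 low genes of the target lists, chosen after their values were seen. ELF5, an epithelial transcription factor and progesterone receptor target, had 0.0321, 0.0227, 0.0387 and 0.00697 RPKM in E2+DHT replicates 1 to 4 and 0.0767, 0.0611, 0.0335 and 0.598 RPKM in E2 replicates 1 to 4. CXCL12, a chemokine and estrogen receptor target, had 0.0543, 0.120, 0.0682 and 0.0983 RPKM in E2+DHT replicates 1 to 4 and 0.108, 0.0738, 0.134 and 0.498 RPKM in E2 replicates 1 to 4. Their part in the values of PGR and ESR1 was not tested.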
